A study of Mus musculus with 58 samples.

Results

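Steroid hormone synthesis was followed across normal liver and liver tumors through 10 genes of the pathway, chosen by name: Star and Tspo, Cyp11a1 with its electron donors Fdx1 and Fdxr, and Hsd3b1, Cyp17a1, Cyp21a1, Cyp11b1 and Cyp19a1. Each gene was read from its brightest transcript cluster, a group of probes for 1 transcript, among clusters that carry 1 gene symbol. This gave values for 8 of the 10 genes among 22180 genes with such a cluster. Cyp19a1 (aromatase) and Fdxr (ferredoxin reductase) had no cluster of their own and were not analysed here. Cyp11a1 was singled out because it had the largest rise in the tumors, so its own tumor difference is a description and was not tested. The question put to the other genes was whether they followed it, tumor by tumor and within animals.

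All steroid hormones start from cholesterol. Star moves cholesterol into the mitochondrion, where Cyp11a1, the side-chain cleavage enzyme, makes pregnenolone with electrons passed on by Fdxr and Fdx1. Enzymes of the 3-beta-hydroxysteroid dehydrogenase family then make progesterone. Cyp17a1 leads towards androgens, Cyp21a1 and Cyp11b1 complete corticosteroids, and Cyp19a1 makes estrogens. The whole chain is known from adrenal cortex and gonads, whereas adult liver is known for breaking steroids down.

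RNA had been hybridised to 58 arrays, 29 with normal liver and 29 with liver tumors, from adult mice that had received adeno-associated virus (AAV), a gene transfer vector, after birth. Their mixed background combined FVB/NJ with C57BL/6 as well as 129/Sv. All animals, those with normal tissue included, had the vector, and the labels give no uninjected group and neither vector nor dose for an array. The titles, some of which give no full animal name, were read as 39 animals, of which 18 gave both tissues and 1 gave 2 tumors. Normal livers 26 and 27, which share a name but differ in mark, were counted as separate animals. The title of normal liver 28 shares a number with those of tumors 22 and 26. That of tumor 29 is close to those of normal liver 4 and tumor 4. These were also counted apart, so the animals read as giving 1 tissue may include such related arrays. Gender labels were 9 female and 20 male for normal liver, and 11 female and 17 male for tumors, with 1 tumor unlabelled. Some titles carry a +/- or -/- mark, whose meaning the labels do not give, and 1 of them also names GFP.

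Of the arrays, 7 (3 normal livers and 4 tumors) went against their gender label by Xist and Y-linked genes. A normal liver, number 27, and a tumor, number 9, stood apart. Normal liver 27 had Cyp11a1 at a log2 value of 11.39, against 6.18 to 6.97 in the other normal livers. It also had the lowest value of the normal livers for the hepatocyte transporter Slco1b2, at 5.81 against 10.44 to 12.08 in the others, and the highest for Afp, alpha-fetoprotein, at 10.09 against 6.70 to 8.51. It shares an animal name with normal liver 26, from which only the mark tells it apart. Tumor 9 had the lowest mean correlation with all other arrays, 0.839. Its mean over 7 hepatocyte markers was 7.93, against 11.30 to 12.47 in the other tumors and 11.83 to 12.55 in normal liver, and its mean over 9 T cell markers was 9.39, against 6.48 to 7.58 in the other tumors. Tumor 9 was thus the only tumor array whose hepatocyte markers lay far below normal liver. Results are given with these 2 arrays, and without them where that moves a call.

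The 2 stretches below are the 250 bases ahead of the 2 starts of Cyp11a1 in RefSeq (GRCm38.p6, both on the plus strand), shown because Cyp11a1 is the gene the pathway was measured against. The first lies at chr9:57997774-57998023 and the second at chr9:58014702-58014951. Capitals mark AGGTCA, the core letters that many nuclear receptors bind, which was searched on both strands after the sequence had been read.
Cyp11a1 start 1: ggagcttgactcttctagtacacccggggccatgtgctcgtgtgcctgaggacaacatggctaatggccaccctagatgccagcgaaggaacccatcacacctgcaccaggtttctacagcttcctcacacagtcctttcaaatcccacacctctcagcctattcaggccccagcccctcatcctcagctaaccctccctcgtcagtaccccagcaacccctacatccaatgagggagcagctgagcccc
Cyp11a1 start 2: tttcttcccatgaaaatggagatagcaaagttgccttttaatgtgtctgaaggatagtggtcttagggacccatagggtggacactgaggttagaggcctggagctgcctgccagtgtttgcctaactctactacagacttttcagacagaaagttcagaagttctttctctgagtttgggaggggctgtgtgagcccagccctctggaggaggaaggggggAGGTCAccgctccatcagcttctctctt

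The second stretch held AGGTCA once and the first did not. Of all 32851 windows of this length in the table, 4607 held AGGTCA on either strand. The longer letters CAAGGNCA, bound by Nr5a-type receptors and overlapping the other motif in part, stood in 5.53% of all windows and in neither stretch of Cyp11a1. The array values do not tell which of the starts was used.

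Cyp11a1 was low in nearly all normal livers and high in most tumors. Its lowest, median and highest log2 values were 6.18, 6.53 and 11.39 in normal liver and 6.49, 11.13 and 12.84 in tumors (transcript cluster 17517831). Normal livers averaged 6.70 ± 0.92 (SD, n = 29) and tumors 10.26 ± 1.96 (SD, n = 29), and the fitted difference was 3.55 (SE 0.37), or 11.7-fold. The groups overlapped: 12 tumors lay above every normal liver, a count that 2.91% of all genes reach, and 26 lay above every normal liver but number 27. Below that second limit, 6.97, were tumors 1, 20 and 24, at 6.49, 6.59 and 6.75.

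The tumors were spread over the whole range of Cyp11a1. The 12 lowest ran from 6.49 to 9.85, followed after a gap of 1.08 by values from 10.92 to 12.84. The 2 tumors of 1 animal, numbers 22 and 26, were both in the upper range, at 11.50 and 12.47. A second cluster of the gene, 17517828, differed by 0.36 (6.31 ± 0.23 for normal livers and 6.67 ± 0.42 for tumors, SD, n = 29 each). The clusters correlated only with r = 0.37 over the 29 tumors, so the size of the rise is that of the brighter cluster, and averaging both gave 1.96.

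**Figure D1:**
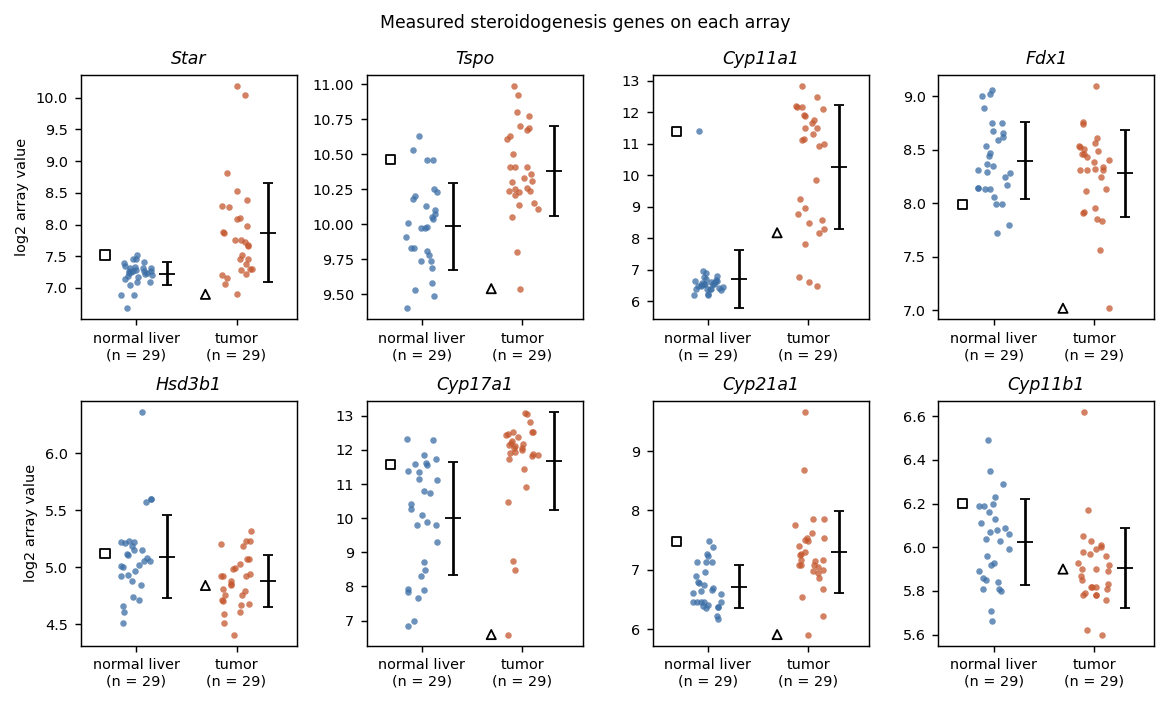
Log2 array values of the 8 measured genes in 29 normal livers (blue) and 29 tumors (orange), 1 point per array, with black bars for mean and SD, each panel on its own scale. The open square repeats normal liver 27 and the open triangle tumor 9. Cyp11a1 has a median of 6.53 in normal liver and 11.13 in tumors, while Fdx1 and Hsd3b1 do not rise.

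Of the 7 other measured genes, Cyp17a1, Star, Cyp21a1 and Tspo rose, Hsd3b1 and Cyp11b1 fell, and Fdx1 did not pass the test. Calls are at an adjusted p under 0.05 in limma with the animal as a random block and Benjamini-Hochberg adjustment over all 22180 genes. In this comparison 17.9% of all genes were called higher and 14.3% lower, so calls in either direction were common. The median log2 difference was 0.39 over the 7 genes and -0.02 over all genes. Without tumor 9 or without normal liver 27, the direction of the 7 differences did not change. In bulk tissue, more cells that carry a transcript and more transcript per cell cannot be told apart.

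Cholesterol import is the first step of the chain. Star (cluster 17500195) ran from 6.68 through a median of 7.26 to 7.52 in normal liver and from 6.90 through 7.73 to 10.19 in tumors. Its normal livers lay close together and its tumors apart, with an SD of 0.18 against 0.78. It rose by 0.65 (SE 0.14), 1.57-fold, with a limma adjusted p of 0.00016. In 18 of 29 tumors Star lay above every normal liver, a count that 0.784% of all genes reach. Tumors 2 and 19 stood out at 10.19 and 10.04, with the next highest, tumor 26, at 8.81. Tumor 8, which had the highest Cyp11a1 of all, had Star at 7.21, within the normal range.

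Tspo, an outer mitochondrial membrane protein long linked to cholesterol import, moved less. Its cluster, 17313654, ran from 9.40 through 9.98 to 10.63 in normal liver and from 9.54 through 10.33 to 10.99 in tumors. The groups overlapped widely, with 7 tumors above every normal liver, a count that 7.8% of all genes reach. The difference was 0.39 (SE 0.08), 1.31-fold, with a limma adjusted p of 9.9e-05.

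Fdx1, the ferredoxin that feeds electrons to Cyp11a1 (cluster 17527004), ran from 7.72 through 8.35 to 9.06 in normal liver and from 7.02 through 8.34 to 9.10 in tumors. The medians were nearly equal and the ranges overlapped almost fully. The difference was -0.12 (SE 0.09, 95% interval -0.31 to 0.06), with a limma adjusted p of 0.33, and the lowest tumor was number 9. Without tumor 9 the difference was -0.07, with an adjusted p of 0.54.

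Hsd3b1, of the family that turns pregnenolone into progesterone, was at the lower end of the array scale in both tissues and went the other way. Its cluster, 17408352, ran from 4.51 through 5.05 to 6.36 in normal liver and from 4.41 through 4.88 to 5.32 in tumors, and no tumor exceeded the highest normal liver. It fell by 0.22 on the log2 scale (SE 0.08), with a limma adjusted p of 0.02. The call was lost in the 18 pairs alone (-0.28, adjusted p 0.07), in animals that gave 1 tissue (-0.10, adjusted p 0.59) and without arrays against the gender label (-0.17, adjusted p 0.12). Named to complete the measured family, Hsd3b2 went from a mean of 8.23 to 7.38 (limma adjusted p 0.015) and Hsd3b3 from 7.91 to 7.24 (0.095). Hsd3b5, Hsd3b6 and Hsd3b7 differed by -1.01, 0.07 and -0.66 (adjusted p 0.017, 0.39 and 5.6e-05). The pairs lost the calls of Hsd3b2 and Hsd3b5 (0.2 and 0.15). Animals that gave 1 tissue lost those of Hsd3b5 and Hsd3b7 (0.16 and 0.071).

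Cyp17a1, which adds the 17-hydroxyl group on the way to androgens, already varied widely in normal liver. Its cluster, 17365410, ran from 6.83 through a median of 10.27 to 12.33 there and from 6.59 through 12.06 to 13.08 in tumors. The ranges overlapped, with 9 tumors above every normal liver, a count that 5.35% of all genes reach. The lowest tumor value was that of tumor 9. The next lowest tumor was at 8.47. Cyp17a1 rose by 1.62 (SE 0.37), 3.08-fold, with a limma adjusted p of 0.0004. The size depended on the animals: it was 1.08 in the 18 pairs and 2.63 in animals that gave 1 tissue, with adjusted p of 0.0021 and 0.01.

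Cyp21a1, the steroid 21-hydroxylase (cluster 17343962), ran from 6.17 through 6.64 to 7.48 in normal liver and from 5.91 through 7.17 to 9.66 in tumors. The highest tumor was number 16, and the next was at 8.69, so the upper end rests on few tumors. It rose by 0.59 (SE 0.14), 1.51-fold, with a limma adjusted p of 0.00047. In 10 tumors Cyp21a1 lay above every normal liver, a count that 4.38% of all genes reach. In animals that gave 1 tissue the difference was 0.39 with an adjusted p of 0.14.

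Cyp11b1, the steroid 11-beta-hydroxylase of corticosteroid synthesis (cluster 17318045), ran from 5.66 through 6.04 to 6.49 in normal liver and from 5.60 through 5.89 to 6.62 in tumors. It fell by 0.12 on the log2 scale (SE 0.05), with a limma adjusted p of 0.038, a small change that several other settings did not call. The pair-only fit gave -0.14 with an adjusted p of 0.092, and without normal liver 27 the adjusted p was 0.0497. Its near-identical neighbour Cyp11b2, the aldosterone synthase, had the same difference of -0.12 (adjusted p 0.04), and probes may not keep the 2 genes apart.

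Within the 18 animals with both tissues, Cyp11a1 was higher in the tumor in 16. Its differences ran from -0.27 through a median of 3.77 to 5.87. Star was higher in the tumor in 16 of the 18 animals, Cyp17a1 in 15, Cyp21a1 and Tspo in 14 each, and Fdx1 in 9. Hsd3b1 and Cyp11b1 were lower in the tumor in 14 each. Over all genes, the median gene was higher in the tumor in 8 animals. Fitted on these pairs alone, Cyp17a1, Star, Cyp21a1 and Tspo kept adjusted p of 0.0021, 0.0078, 0.015 and 0.022.

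Many, but not all, animals had several of these differences at once. Cyp11a1, Cyp17a1 and Star were all higher in the tumor in 13 of 18 animals. Cyp11a1 was higher with Hsd3b1 lower in 13 animals, and higher with Fdx1 lower in 8. Taken singly, Cyp11a1 and Star were higher in 16 animals each and Cyp17a1 in 15, and Hsd3b1 was lower in 14. Joint counts would thus be high without any link between the genes, and say little about whether they move together. In the 2 animals with no rise of Cyp11a1, those of tumors 1 and 20, Cyp17a1 differed by 0.19 and -0.46 and Star by 0.01 and 0.39. In the animal of tumor 16, Cyp11a1 differed by 1.43 and Cyp17a1 by -0.24 while Cyp21a1 differed by 3.29, the largest of its 18 differences. In the animal of tumor 8, Cyp11a1 differed by 5.87 and Cyp17a1 by 2.30 while Star differed by -0.06.

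**Figure D2:**
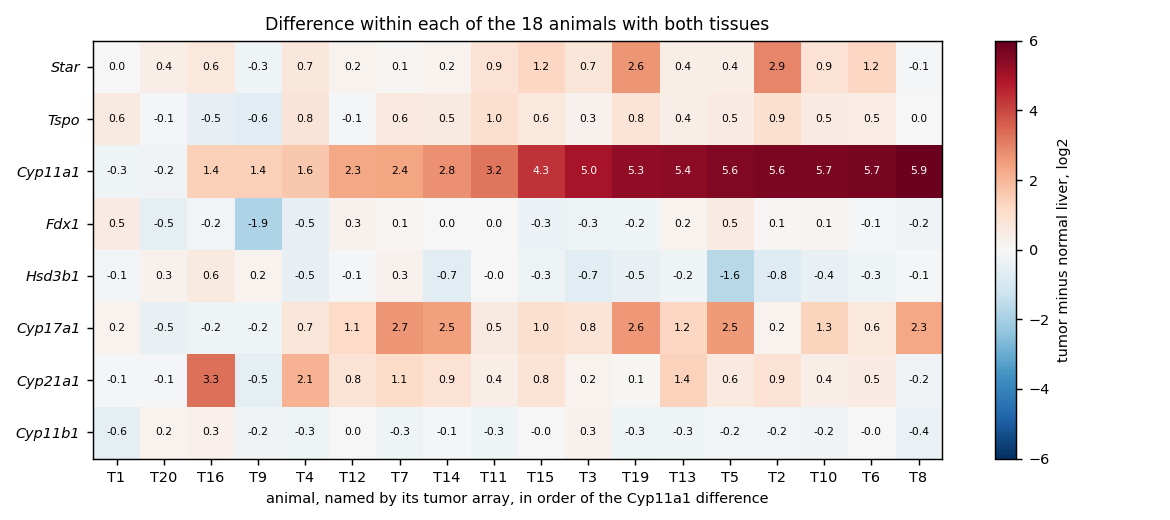
Tumor minus normal liver on the log2 scale for each of the 18 animals with both tissues (columns, named by tumor array and ordered by the Cyp11a1 difference) and each of the 8 measured genes (rows). Cyp11a1 is higher in the tumor in 16 of 18 animals, Star in 16 and Cyp17a1 in 15, while Hsd3b1 is lower in 14.

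Counted over all 29 tumors, the overlap depended on the gene and on normal liver 27. Of the 12 tumors with Cyp11a1 above every normal liver, 11 also had Star above every normal liver, 91.7% of the 12 and 61.1% of the 18 tumors with high Star. For Cyp17a1 it was 6 tumors, 50.0% of the 12 and 66.7% of the 9 with high Cyp17a1. For Cyp21a1 it was 3 tumors, of the 12 and of the 10 with high Cyp21a1. When the limits left out normal liver 27, 26 of 29 tumors were above for Cyp11a1. The tumors above the limit of any other gene were all among these 26. As the 26 are nearly all tumors, overlap under these limits says little about whether the genes rise together. With these limits, 6 tumors had Cyp11a1, Cyp17a1 and Star all above, 5 had Cyp11a1 with neither of the others, and 3 had none.

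The variation between tumors was not used to choose the genes, so it was tested. Each gene was set against Cyp11a1 over 28 animals with a tumor, the 2 tumors of 1 animal averaged, and the same was done over the 18 pair differences and the 29 normal livers, 21 relations in all. Of all 22179 other genes, 1.16% rose with Cyp11a1 across tumors at a limma adjusted p under 0.05 and 0.293% fell. Across tumors only Cyp17a1 of the 7 genes passed. It had r = 0.59 (permutation p = 0.00071) and rho = 0.58 (permutation p = 0.0016), with a limma adjusted p over all genes of 0.0396. Without the 2 animals farthest from the median of Cyp11a1, r was 0.64 over 26 animals, and the adjusted p was 0.154. The call was also lost after quantile normalization (adjusted p 0.0523), with clusters averaged (0.0785), without arrays against the gender label (0.053) and given the gender label (0.128).

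Star had r = 0.51 (permutation p = 0.0046) and rho = 0.48 (permutation p = 0.0093) with Cyp11a1 across tumors, but the limma adjusted p over all genes was 0.101. Its r without the 2 farthest animals was 0.46. Hsd3b1 had r = -0.41 (permutation p = 0.03) and rho = -0.45 (permutation p = 0.017), with a limma adjusted p of 0.217 and r = -0.37 without the 2 farthest. For scale, the 5th, 95th and 99th percentiles of r over all genes were -0.41, 0.47 and 0.60. Fdx1, Tspo, Cyp21a1 and Cyp11b1 had r of 0.28, 0.22, -0.01 and -0.12, with limma adjusted p from 0.404 to 0.979.

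Tumors were also divided at the gap in Cyp11a1, a division chosen after the values were seen. The gap of 1.08 was under the 1.5 planned for a division. A narrower range of Cyp11a1 by itself can lower r, so r within a side cannot be weighed against r over all tumors. Cyp17a1 had r = 0.42 in the 12 animals below and 0.29 in the 16 above. Its median was 11.83 below and 12.18 above. Star had r = 0.49 below and -0.05 above, with medians of 7.30 and 7.99. Hsd3b1 had r = -0.36 below and -0.18 above, with medians of 4.99 and 4.80. Of the remaining genes, Cyp11b1 had r = -0.68 below and -0.06 above, and Cyp21a1, Fdx1 and Tspo had r from 0.07 to 0.36 below and from -0.18 to -0.10 above. Without tumor 9, Cyp17a1 had r = 0.63 (adjusted p 0.0227), Star 0.48 and Hsd3b1 -0.43.

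**Figure D3:**
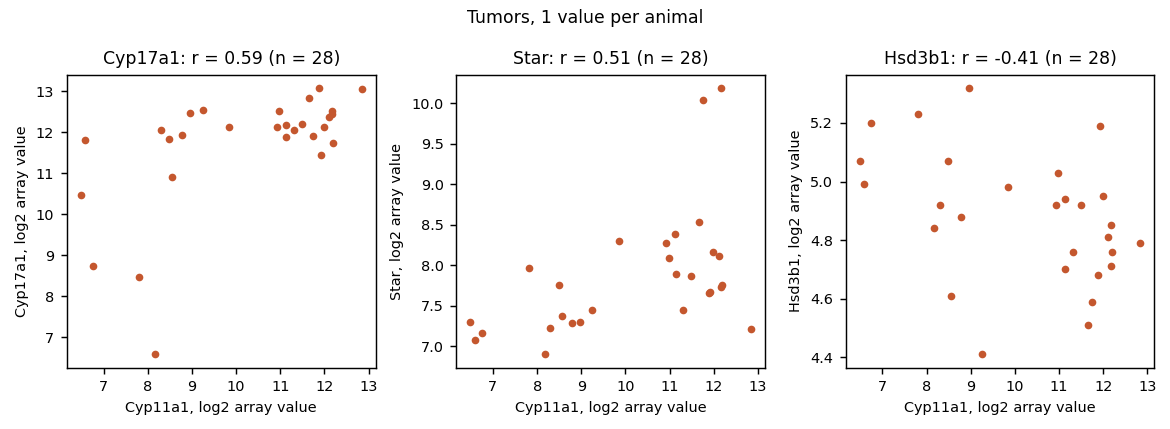
Log2 values of Cyp17a1, Star and Hsd3b1 against Cyp11a1 in the tumors of 28 animals, 1 point per animal. Pearson's r is 0.59 for Cyp17a1, 0.51 for Star and -0.41 for Hsd3b1, and only that of Cyp17a1 passed adjustment over all genes, a call that 5 other settings did not keep.

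Across the 18 pair differences, 0.00451% of genes (1 gene) rose with Cyp11a1 at a limma adjusted p under 0.05 and 0.0% fell, and 2936 genes had an unadjusted p under 0.05. None of the 7 genes passed. Hsd3b1 had r = -0.56 (permutation p = 0.013), rho = -0.49 (permutation p = 0.04), a limma adjusted p of 0.37 and r = -0.55 without the 2 farthest pairs. Cyp17a1 had r = 0.49 (permutation p = 0.039), rho = 0.50 (permutation p = 0.038), a limma adjusted p of 0.373 and r = 0.32 without the 2 farthest. Star had r = 0.48 (permutation p = 0.04), rho = 0.43 (permutation p = 0.078), a limma adjusted p of 0.373 and r = 0.45 without the 2 farthest. Tspo, Fdx1, Cyp11b1 and Cyp21a1 had r of 0.37, 0.26, -0.07 and -0.11, with adjusted p from 0.417 to 0.901.

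In normal liver the range of Cyp11a1 is set by 1 array, number 27, which lies 4.43 above the next. A pooled r over the 29 therefore says little. Of all other genes 0.852% rose with Cyp11a1 over these arrays at a limma adjusted p under 0.05 and 0.537% fell, and none of the 7 genes passed. Without that array, over 28 normal livers, r was 0.32 for Cyp17a1, -0.21 for Star, 0.18 for Hsd3b1, -0.08 for Fdx1 and -0.01 for Tspo, with limma adjusted p from 0.337 to 0.98. Cyp11b1 had r = 0.45, with an adjusted p of 0.226. Normal liver 27 itself also had the highest Star and Cyp21a1 of the normal livers, 7.52 and 7.48, though close to the next highest, 7.46 and 7.39.

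The genes most like Cyp11a1 across the 28 tumor animals were mostly outside the pathway. By Pearson's r they were Wfdc15b (0.86), a WAP-domain protein, Pde10a (0.81), a cyclic nucleotide phosphodiesterase, Pgap2 (0.79), of GPI anchor maturation, and Scarb1 (0.78), the receptor that takes cholesterol from high-density lipoprotein. Zfp618 (0.77), Gdpd5 (0.77), the elongation factor subunit Supt5 (0.76) and Apba2 (0.75) followed. The lowest were 4933409K07Rik (-0.72), the transcription factor Klf5 (-0.71), Ap5b1 (-0.71) and Ssh3 (-0.70). These values rank genes by likeness and carry no test.

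Over the 18 pair differences, which share tumors with that ranking, Gdpd5, Wfdc15b and Pde10a had r of 0.89, 0.85 and 0.82 with Cyp11a1, Scarb1 0.66 and Klf5 -0.03. Wfdc15b went from 6.61 ± 0.53 (SD, n = 29) in normal liver to 9.18 ± 1.39 (SD, n = 29) in tumors. Pde10a went from 7.30 ± 0.49 (SD, n = 29) to 9.71 ± 1.08 (SD, n = 29). Scarb1 went from 10.60 ± 0.43 (SD, n = 29) to 11.43 ± 0.73 (SD, n = 29).

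The wider pathway was read from lists of related genes, with the background of 17.9% higher and 14.3% lower. The fit of animals that gave 1 tissue used 11 normal livers and 11 tumor arrays, of which the 2 from 1 animal were averaged. In it the calls of Crem, Stard4, Acbd3, Hsd17b6, Hsd11b1, Akr1c18, Esr1, Cd4, Gata3, Vsig4 and Marco below were lost, among others. Among 12 regulators of steroidogenic genes, 3 rose and 1 fell, with a median of 0.01. The orphan receptors Nr4a1 and Nr4a2 rose by 0.87 (SE 0.12, limma adjusted p 1.3e-07) and 0.80 (SE 0.13, adjusted p 1.8e-06), and the cAMP responsive factor Crem by 0.38 (SE 0.08, adjusted p 0.00022). Gata4, a factor of liver, heart and gonads, fell by 0.51 (SE 0.07, adjusted p 1.1e-08). Nr5a1, the steroidogenic factor of adrenal and gonad, differed by -0.08 with an adjusted p of 0.099. Its liver relative Nr5a2, named after its value was seen as was Crem, differed by -0.07 with an adjusted p of 0.7.

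Of 13 measured genes of cholesterol supply, 3 rose and 2 fell, with a median of 0.01. Scarb1 rose by 0.82 (SE 0.15, limma adjusted p 1.2e-05), Acbd3, a Golgi protein that binds Tspo, by 0.28 (SE 0.06, adjusted p 0.00035) and Vdac1, the mitochondrial channel, by 0.27 (SE 0.07, adjusted p 0.0035). Stard4, a soluble cholesterol carrier of the Star family, fell by 0.99 (SE 0.16, adjusted p 9.9e-07), and Dbi, the ligand of Tspo, fell by 0.60 (SE 0.08, adjusted p 2.4e-08). Acbd3 and Vdac1 are named to complete the count. Quantile normalization brought the genes that fell to 6, and in the pairs Vdac1 had an adjusted p of 0.13.

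Of 4 electron donors of P450 enzymes other than Fdx1, 2 fell and none rose: H6pd, which makes NADPH in the endoplasmic reticulum, fell by 0.45 (SE 0.09, limma adjusted p 3.8e-05) and Cyb5a, a cytochrome b5 that aids Cyp17a1, fell by 0.29 (SE 0.06, adjusted p 0.0002). Neither was called in animals that gave 1 tissue. Of 4 other mitochondrial P450 enzymes, 2 fell. Cyp27a1, of bile acid synthesis, which also draws electrons from Fdx1, fell by 1.14 (SE 0.14, adjusted p 4.7e-09), and Cyp11b2 is given above. The call of Cyp11b2 was lost without tumor 9, in the pairs (adjusted p 0.066), in animals that gave 1 tissue (0.64), after quantile normalization and without arrays against the gender label.

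Of 22 other hydroxysteroid dehydrogenases and reductases, 11 fell and 1 rose, with a median of -0.45 and 10 that did not pass. Hsd17b6, which oxidises and reduces androgens, fell by 1.95 (SE 0.32, limma adjusted p 1.9e-06), 3.87-fold. Akr1c6 fell by 1.22 (SE 0.19, adjusted p 5e-07), and Hsd11b1, which regenerates active glucocorticoid in liver, fell by 1.05 (SE 0.14, adjusted p 6e-08). Akr1c18, which inactivates progesterone, was the gene that rose, by 0.87 (SE 0.29, adjusted p 0.017), and is named to complete the count. In the pairs 8 fell, and in animals that gave 1 tissue 5 fell and none rose. Without tumor 9 the list had 2 higher, with Hsd17b13 added.

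Of 6 genes of steroid conjugation and release, 1 fell: Cyp3a11, a steroid and drug hydroxylase, by 1.27 (SE 0.23, limma adjusted p 1.8e-05). The sulfotransferase Sult2a1 differed by -0.97 with a wide SE of 0.58 and an adjusted p of 0.2. It fell in the pairs, by 1.61 with an adjusted p of 0.041. Of 6 steroid hormone receptors, 1 fell, the estrogen receptor Esr1, by 0.59 (SE 0.15, adjusted p 0.0011), a list in which quantile normalization called 3 lower. Of 8 genes of trophic hormone signalling, 3 rose. Mrap, the accessory protein of the ACTH receptor, rose by 0.94 (SE 0.18, adjusted p 4e-05), while the receptor itself, Mc2r, was 5.31 ± 0.16 and 5.27 ± 0.16 (SD, n = 29 each), an adjusted p of 0.43. Pde8b, a cAMP phosphodiesterase, and Prkar1a, a regulatory subunit of protein kinase A, rose by 0.30 and 0.21, with adjusted p of 0.0035 and 0.0082, of which the pair-only fit kept neither (0.075 and 0.071).

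**Figure D4:**
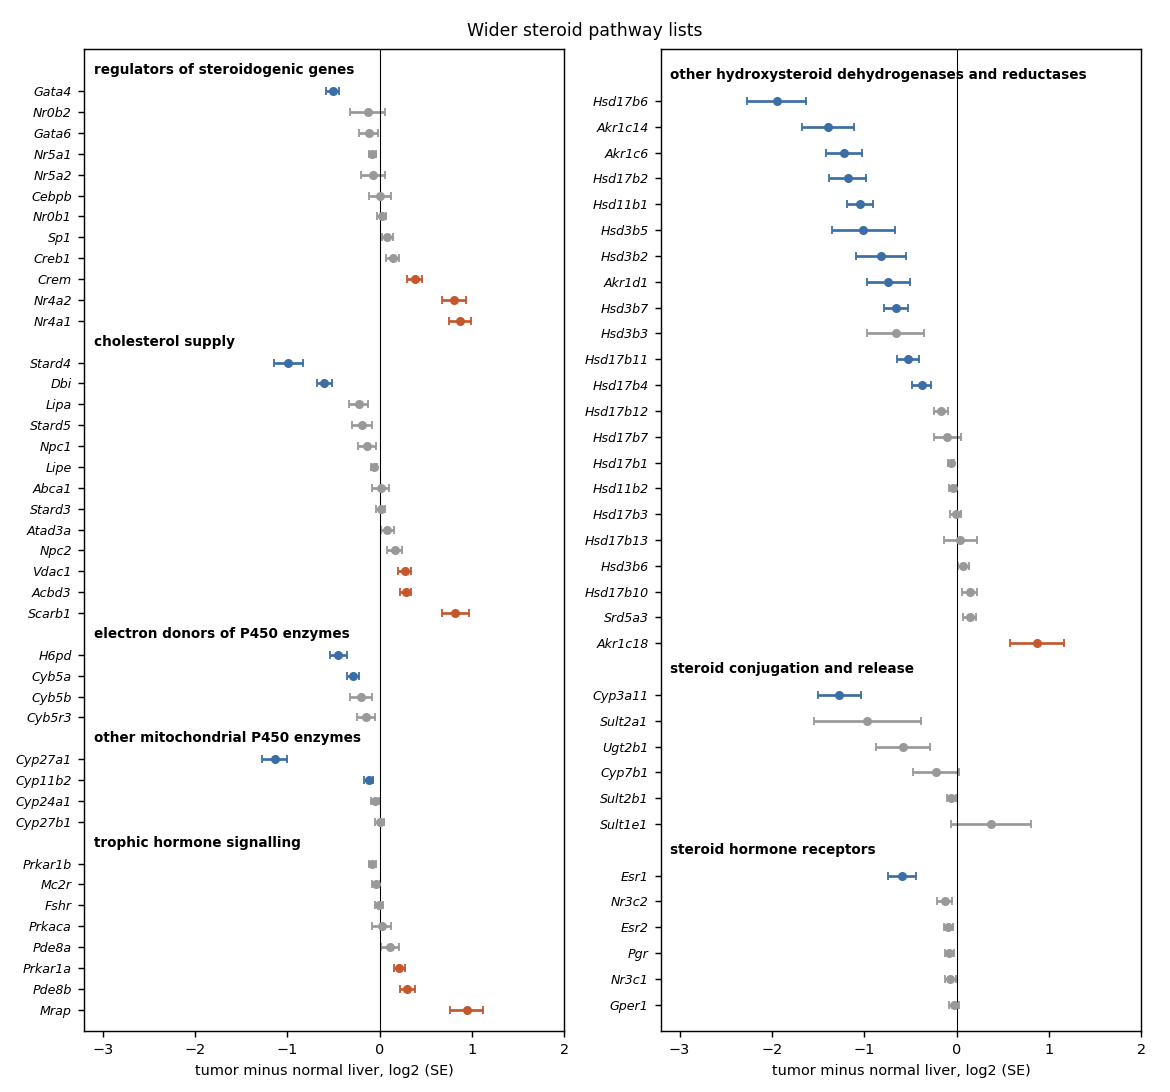
Tumor minus normal liver on the log2 scale for the measured genes of 8 lists around steroid hormone synthesis, as points with SE bars from limma over 58 arrays. Orange marks genes called higher and blue genes called lower at an adjusted p under 0.05, and grey the others. Of the 22 other hydroxysteroid dehydrogenases and reductases 11 are lower and 1 is higher.

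Few markers of cell types that make steroids passed the test. Of 5 adrenal cortex markers, Mrap rose and Cyp11b2 fell, with the limits given for Cyp11b2 above. The mean over the list was 6.39 to 6.98 in normal liver and 6.59 to 7.05 in tumors other than tumor 9, which was at 5.98. Of 6 gonad markers, Foxl2 and Amh fell by 0.15 and 0.13 (limma adjusted p 0.0092 and 0.036), and the mean over the list was 6.45 to 7.07 and 6.41 to 7.06. The call of Amh was lost without tumor 9, in the pairs (adjusted p 0.08), without arrays against the gender label and in animals that gave 1 tissue (0.57), where Foxl2 was not called either. None of 5 trophoblast markers passed (0 to 2 were lower under other settings), with Hand1 at -0.12 and an adjusted p of 0.058 (0.033 without normal liver 27), and list means of 5.80 to 6.54 and 5.83 to 6.46. The array gives no value of 0, so absence of these transcripts cannot be read from it.

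Mast cells and some T cells are also known to carry Cyp11a1. None of 9 mast cell markers passed, with Kit at 0.19 and an adjusted p of 0.19. The list means were 5.45 to 5.87 in normal liver and 5.32 to 6.00 in tumors other than tumor 9, which was at 7.04. Of 9 T cell markers, Cd4 rose by 0.48 (SE 0.12, limma adjusted p 0.002) and Gata3 fell by 0.16 (SE 0.05, adjusted p 0.015). Without tumor 9 the T cell list had 1 higher and 3 lower, and without normal liver 27 it had 2 higher and 2 lower, with Il7r (adjusted p 0.031) and Icos (0.041) added. The correlation of the list mean with Cyp11a1 over the 28 tumor animals was -0.34 for mast cell and -0.00 for T cell markers, as a description. Both values include tumor 9, the highest tumor for either list, and can depend on that array.

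Genes of Kupffer cells, the resident macrophages of liver, were among those that fell. Of 6 macrophage markers 3 fell and Cd68, named to complete the count, rose by 0.47 (adjusted p 0.015), a call lost in the pairs (0.053) and in animals that gave 1 tissue (0.37). Vsig4 fell by 2.37 (SE 0.35, limma adjusted p 3.3e-07), Clec4f by 2.06 (SE 0.23, adjusted p 2.4e-10) and Marco by 1.10 (SE 0.20, adjusted p 1.3e-05). The list mean had r = -0.49 with Cyp11a1 across the tumors. Of 7 hepatocyte markers 3 fell, Apoa1 by 0.74, Serpina1a by 0.94 and Hnf4a by 0.33 (adjusted p 0.0001, 0.00011 and 0.046), and without tumor 9 the list had 6 lower and 1 higher. The call of Hnf4a was lost without normal liver 27 (adjusted p 0.051), in the pairs (0.11) and without arrays against the gender label, and none of the list was called in animals that gave 1 tissue. The list mean had r = 0.18 with Cyp11a1, a value that includes tumor 9, the lowest tumor for this list, and can depend on it. The part of these cell types in the values of the steroidogenesis genes was not tested.

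By gender label, Cyp11a1 in normal liver was 6.51 ± 0.19 (SD, n = 9) in females and 6.78 ± 1.10 (SD, n = 20) in males, the latter with normal liver 27. In tumors it ran from 6.49 through a median of 8.78 to 12.19 in 11 females and from 8.17 through 11.14 to 12.84 in 17 males. Tumors 1, 20 and 24, without a rise, were labelled female. The tumor difference was 2.88 (SE 0.60) in females and 4.11 (SE 0.45) in males, a description. Female minus male of these differences was -1.23 (SE 0.75), with an unadjusted limma p of 0.11 and an adjusted p of 0.949. Without the 7 arrays against their gender label it was -1.75 (SE 0.82, unadjusted p 0.038, adjusted p 0.909). Without normal liver 27 it was -1.44 (SE 0.68, unadjusted p 0.039, adjusted p 0.898).

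Cyp17a1 in normal liver was 10.95 ± 1.06 (SD, n = 9) in females and 9.56 ± 1.73 (SD, n = 20) in males, and in tumors 11.33 ± 1.47 (SD, n = 11) and 11.94 ± 1.44 (SD, n = 17). The rise was 2.28 (SE 0.45, limma adjusted p 6.16e-05) in males, where 17.9% of all genes were called higher. In females the difference was 0.39 (SE 0.60, adjusted p 0.858), where 1.38% were. The test of the difference between the sexes gave -1.89 (SE 0.75), with an unadjusted limma p of 0.014 and an adjusted p of 0.949, so the rise was not shown to differ. That test called none of 22180 genes (0.0%), with 1004 at an unadjusted p under 0.05. Without tumor 9 the value for Cyp17a1 was -2.18 (SE 0.65, unadjusted p 0.0015, adjusted p 0.717). Without arrays against the gender label it was -2.09 (SE 0.85, unadjusted p 0.018, adjusted p 0.909). Over all labelled arrays, the other 6 genes had values from -0.30 to 0.08, with adjusted p from 0.956 to 0.987.

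**Figure D5:**
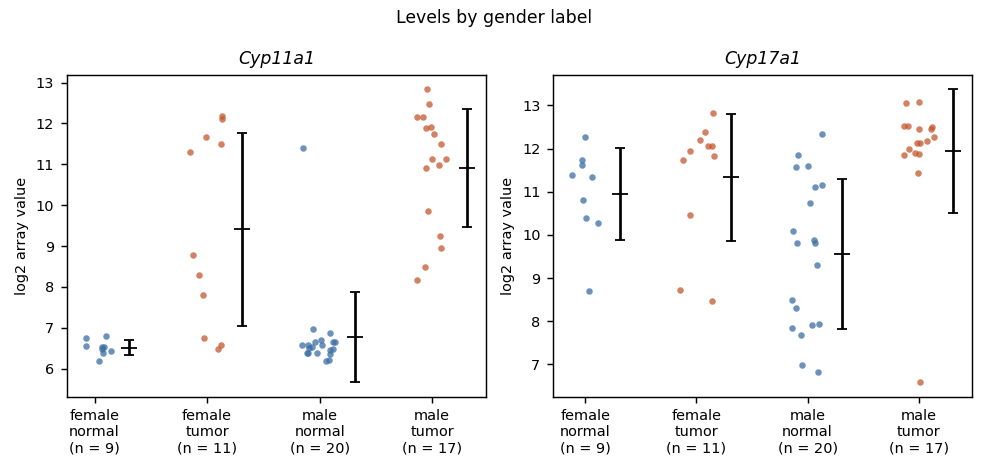
Log2 array values of Cyp11a1 and Cyp17a1 by gender label and tissue, 1 point per array, with black bars for mean and SD (9 female and 20 male normal livers in blue, 11 female and 17 male tumors in orange). Cyp17a1 averages 10.95 in female and 9.56 in male normal livers, and the groups overlap.

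In normal liver alone, Cyp17a1 was higher in females by 1.39 (SE 0.57), with an unadjusted limma p of 0.017 and an adjusted p of 1, and the groups overlapped. This comparison called 0.0135% of genes higher and 0.0361% lower in females, and none of the 8 steroidogenesis genes.

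Among normal livers labelled male, 4 carried the -/- mark and 5 the +/- mark. Cyp17a1 was 9.31, 7.93, 7.90 and 11.57 in the -/- livers 17, 20, 22 and 27, and 11.12, 9.80, 11.84, 11.15 and 9.80 in the +/- livers 4, 7, 13, 15 and 26. The -/- livers other than number 27 lay below all +/- livers. The difference, -/- minus +/-, was -1.56 (SE 0.71) with a limma adjusted p of 0.757, and without normal liver 27 it was -2.36 (SE 0.50) with an adjusted p of 0.26. Cyp21a1 was 6.46, 7.14, 6.66 and 7.48 in the -/- livers and 6.60, 6.45, 6.37, 6.17 and 6.39 in the +/- livers, a difference of 0.54 (SE 0.19) with an adjusted p of 0.703. Cyp11a1 differed by 1.14 (SE 0.86, adjusted p 0.847) with normal liver 27 and by -0.09 (SE 0.13, adjusted p 0.909) without it. No gene of 22180 (0.0%) passed this comparison in limma, and 1461 had an unadjusted p under 0.05.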

How the data were processed

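Total RNA was measured on Affymetrix whole-transcript arrays, 1 array per tissue sample. The authors deposited log2 values, 1 per transcript cluster and array. Per the submitters' processing notes, Affymetrix Expression Console produced them. Its algorithm and the genome build were not given in the sources used here. Values ran from 2.91 to 14.08, with array medians from 6.72 to 7.15. No detection call was used, so a dim gene has no stated limit, and a fold between arrays can be too small near background. The number of arrays limits the precision.

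Of 41345 clusters, 23521 had 1 symbol in the platform table. For 1082 genes with several, the brightest was used. Tests used R 4.3.3 with limma 3.58.1 (statmod 1.5.0): lmFit with the animal, read from the titles, as a random block (correlation 0.145, and 0.148 in the fit of 4 tissue and gender groups), eBayes with a trend and adjustment over all genes. The pairs come from shared animal names, and deviations of same-animal arrays correlated with a median of 0.241 (above 0.1 in 15 of 18). Correlations used permutation tests, two-sided with 100000 draws, and a limma regression of all genes on Cyp11a1 in which animals were not blocked. Analyses in Python 3.11.15 used numpy 2.4.6 and scipy 1.17.1. Simulated arrays, tumors included, were drawn with the SD of normal livers and no correlation within animals. Among 22180 genes, 90% of log2 changes of 0.5 and 97% of changes of 1 were recovered between tumor and normal liver. Where tumors vary more than normal livers, as for Star, recovery in the real data can be lower. The 95% intervals are 1.96 SE wide on each side.

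The genes and lists were chosen with earlier results of these data known. Named genes are all members, up to 3 of smallest adjusted p and the largest change per list, and the 8 highest and 4 lowest r with Cyp11a1. Some genes were added to complete a count or a family. Cyp19a1 and Fdxr were not analysed here. Promoters for 5 of the 10 genes matched by symbol in RefSeq (GRCm38.p6). Replicate numbers only name arrays.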

Additional observations from a re-analysis of the deposited data

Results flagged for a closer look

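Cyp11a1 in normal liver 27 was far from the rest of its group. Among the 4 -/- marked normal male livers it was 11.39, with 6.45, 6.66 and 6.36 in the others. Of 24 combinations of a gene and a group of 4 to 10 arrays, 1 stood apart in this way. The rule used flags about 1 in 20 by chance, a rate that does not tell how far a flagged array lies. For Cyp11a1, normal liver 27 lay 4.43 above the next of all normal livers. The array lay within the tumor range (6.49 to 12.84), and its Gucy2c, Slpi and Afp were also the highest of the normal livers, at 10.45, 11.89 and 10.09. Whether its tissue label holds was not tested.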

How the results depend on the processing

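With the animal as a fixed replicate block in the 18 pairs, 1804 genes were lower instead of 3166 and 0 of the 7 genes instead of 2. Hsd3b1 (-0.28) and Cyp11b1 (-0.14) lost their calls, and no other call of the 7 changed. Fewer arrays enter this fit too, so its changes cannot be laid to the pairing alone. In animals that gave 1 tissue, 1185 genes were higher and 515 lower, 0 of the 7 genes were lower, and Cyp21a1 (0.39), Hsd3b1 (-0.10) and Cyp11b1 (-0.10) lost their calls; fewer arrays enter that fit. Of the 7 genes 1 stayed lower after quantile normalization and without a block, where Cyp11b1 (-0.09 and -0.12) lost its call, and without arrays against the gender label, where Hsd3b1 (-0.17) lost its own. Brighter genes alone gave 1920 lower and 0 of the 7, as these dim genes are left out, and array weights gave 6169 lower. Averaging clusters gave 1.96 for Cyp11a1. A looser reading of the titles into animals called 4108 genes higher and 3415 lower, with 4 of the 7 genes higher and 2 lower. Without arrays against the gender label, sex in normal liver called 8 genes higher and 13 lower instead of 3 and 8. Leaving out each marked liver gave 0 to 3 genes higher (3 without normal liver 27) and 0 to 2 lower (2 without normal liver 7). The relation of Cyp17a1 to Cyp11a1 across tumors lost its call after quantile normalization (r 0.57), with averaged clusters (0.56), without the 2 farthest animals (0.64), without arrays against the gender label (0.60) and given the gender label (0.56), adjusted p 0.0523 to 0.154. Unless the cause is named, it was not tested. Leaving out normal liver 27 and dividing the tumors at a gap were chosen after seeing the data. Dim genes limit precision, as signal over background is unknown.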
